A study of Mus musculus with 7 samples.

Results

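The expression of 10 melanocyte lineage genes was followed through mouse melanomas: Pmel, Mlana and Slc45a2, which encode melanosome proteins, the pigment enzymes Tyr, Tyrp1 and Dct, the melanocortin receptor Mc1r, and the nuclear factors Mitf, Sox10 and Cited1. They were chosen by name from the deposited expression table, and all 10 were found among its 28233 genes. All 10 also passed the filter for testing, which asked for a mean TPM of 1 or more, so no member was lost to low values. TPM, the transcript abundance unit of the deposited table, is a level per transcript length within 1 tumour, which allows levels of different genes to be compared.

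The tumours were grown under the skin from B16mhgp100 cells, which descend from the B16 melanoma of the mouse, in C57BL/6 mice. Cells of 4 tumours over-expressed Cr1l, which encodes the complement regulator Crry (tumours Cr1l 1 to Cr1l 4), and cells of the other 3 carried vector (tumours Vec 5 to Vec 7). Every mouse had received anti-PD1 antibody at 200 µg per dose, starting on day 10 after inoculation, on 2 occasions a week for 4 doses, and collection of the tumours followed 1 day after dosing ended. The labels number 7 separate tumours without naming the mouse of each, so the tests below measure the spread between tumours. No tumour without antibody was part of the design, and the sources used here give neither age nor sex of the animals. B16mhgp100 is named for gp100, the protein made from Pmel, but the sources used here do not say whether reads of an introduced copy were counted in the Pmel row. Whole tumours were sequenced, so fewer melanoma cells and less RNA per melanoma cell cannot be told apart in any value below.

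Pigment is made in melanosomes, organelles of the melanocyte, on fibrils that Pmel builds. Tyr oxidizes tyrosine, and Dct and Tyrp1 act on the products to make brown and black eumelanin. Mc1r, a receptor for melanocyte-stimulating hormone, raises cyclic AMP and through it Mitf, the factor that binds an E-box with the letters CATGTG upstream of many pigment genes. Sox10, a neural crest factor, acts upstream of Mitf and also on Dct. Several of these proteins, Pmel, Tyr, Tyrp1, Dct and Mlana among them, are antigens that T cells recognize on melanoma.

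The best known form of that E-box is the M-box, TCATGTGCT. The upstream windows of the members are shown because the 3 pigment enzymes, whose levels are compared below, carry it letter for letter. RefSeq promoter windows on GRCm38.p6, an older build than the one the authors used, were at hand for 6 of the 10 members, in 10 windows of 250 bases before a gene start. The stretches below come from chr7:87493513-87493574 on the minus strand for Tyr, chr4:80834126-80834212 on the plus strand for Tyrp1, chr14:118052349-118052437 on the minus strand for Dct and chr8:123406991-123407076 on the plus strand for Mc1r. Capitals mark the M-box in the enzymes and CATGTG, on either strand, in Mc1r.
Tyr: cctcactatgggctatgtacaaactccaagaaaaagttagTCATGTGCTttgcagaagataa
Tyrp1: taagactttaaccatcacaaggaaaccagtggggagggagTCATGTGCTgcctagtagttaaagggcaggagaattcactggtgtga
Dct: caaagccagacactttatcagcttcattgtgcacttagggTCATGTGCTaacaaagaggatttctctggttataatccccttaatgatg
Mc1r: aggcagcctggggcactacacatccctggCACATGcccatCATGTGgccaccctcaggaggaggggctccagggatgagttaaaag

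The M-box began 22 bases before the gene start in Tyr, 47 in Tyrp1 and 151 in Dct. Searched on both strands, TCATGTGCT was found in 110 of 32851 windows of the same length (0.335%), and in none of those of Mc1r, Mitf or Cited1. The shorter CATGTG, which lies inside every M-box, was found in 4025 windows (12.3%). Mc1r held it on both strands, at 51 and 62 bases before the start. Cited1 held it in 1 of its 3 windows and Mitf in 0 of 3. These matches are letters in a window and were not measured as binding.

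Before the groups were compared, libraries that stood apart were looked for over all 14954 genes tested. Along the first principal component, with 49.5% of the variance, Cr1l 3 (82.2) and Cr1l 4 (67.1) lay far from the other 5 tumours (-56.9 to -14.9). Cr1l itself stood at 76.4 to 83.6 TPM in the Cr1l tumours against 46.3 to 54.9 TPM in the Vec tumours, so that no tumour goes against its label. Vec 6 and Vec 7 bear an extra number in their titles, unlike Vec 5, with a meaning that the sources used here do not state. Each member's fold change is therefore also given without Cr1l 3 and Cr1l 4, and without Vec 6 and Vec 7 where that moved it by more than 1.5 times.

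The label of the set held in the data: every member was detected in every tumour, with no value below the 21.4 TPM of Mc1r in Cr1l 4. Together the 10 genes took 2.09%, 1.95%, 0.941% and 1.09% of all TPM in Cr1l 1 to Cr1l 4, and vector tumours Vec 5 to Vec 7 gave 1.95%, 1.37% and 2.12%. Cr1l 3 and Cr1l 4 had the lowest shares, while Cr1l 1 and Cr1l 2 lay within the range of the Vec tumours. Pmel ranked between 5 and 28 among all genes of a tumour, and Mc1r between 1197 and 6377. By mean level the order ran Pmel, Dct, Tyrp1, Mlana, Slc45a2, Sox10, Cited1, Mitf, Tyr and Mc1r. Neighbours in that order kept their places in all 7 tumours except Tyrp1 above Mlana (6 of 7), Sox10 above Cited1 (5 of 7), Cited1 above Mitf (3 of 7) and Mitf above Tyr (6 of 7), so Cited1 and its neighbours cannot be ordered beyond their spread.

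**Figure D1:**
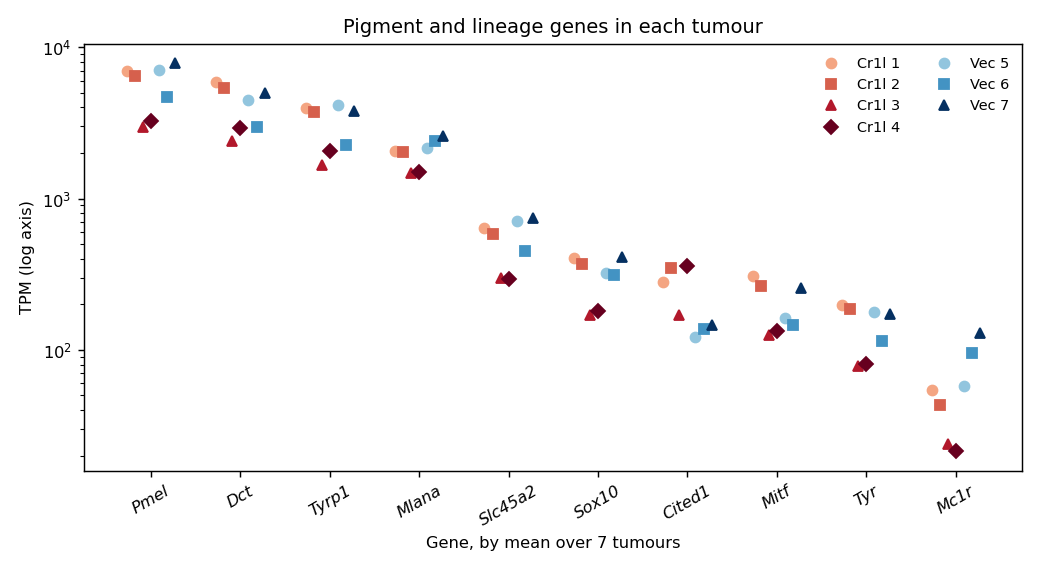
Level of each of the 10 genes in each of the 7 tumours, in TPM on a log axis, with 1 point per tumour (red shades Cr1l, blue shades Vec). Cr1l 3 and Cr1l 4 are the lowest points for every gene but Cited1, which is higher in all 4 Cr1l tumours than in any Vec tumour. Mc1r and Mlana are lower in all 4 Cr1l tumours than in any Vec tumour.

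Between the groups, Cited1 and Mc1r stood farthest apart, Cited1 higher and Mc1r lower with Cr1l, Mlana was lower by less, and the other 7 genes overlapped. With limma on log2(TPM + 1) and Benjamini-Hochberg adjustment over all genes, 0 of the 10 members passed an adjusted p of 0.05, a threshold that 0.0134% of all genes passed. At an unadjusted p under 0.05, 1 member was higher and 2 were lower, beside 9.49% of all genes higher and 6.07% lower. Without overlap between groups the count was the same, 1 member higher (Cited1) and 2 lower (Mc1r and Mlana), beside 9.29% of all genes higher and 6.67% lower. In the authors' deposited table, made with DESeq2, 1 member was called higher (Cited1) and 1 lower (Mc1r), beside 4.74% and 2.27% of all genes. The members' median log2 fold change, Cr1l minus Vec, was -0.35 against 0.05 over all genes tested, and 8 of the 10 values were negative. Without Cr1l 3 and Cr1l 4 that median was 0.20, so its sign rests on those 2 tumours, and it was also positive when scaled to Sox10 (0.10) and with macrophage markers as a covariate (0.07).

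**Figure D2:**
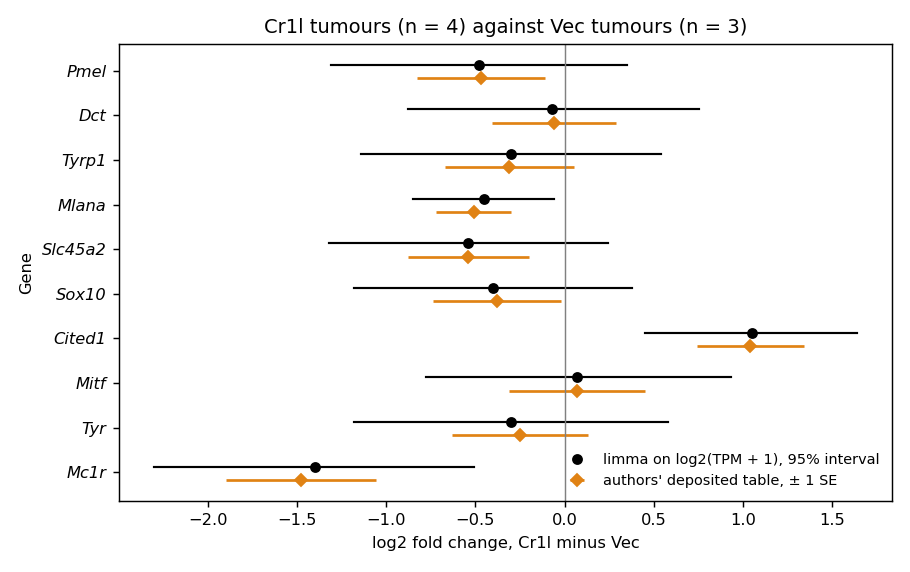
log2 fold change, Cr1l minus Vec, of each gene: black points are limma estimates on log2(TPM + 1) with 95% intervals from 4 and 3 tumours, and orange diamonds are the authors' deposited values with 1 standard error. Only the intervals of Cited1 (0.45 to 1.64), Mc1r (-2.30 to -0.51) and Mlana (-0.85 to -0.06) leave out 0.

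Pmel, the fibril protein, was measured at 6978, 6414, 2950 and 3276 TPM in Cr1l 1 to Cr1l 4 and at 7081, 4681 and 7813 TPM in Vec 5 to Vec 7. Cr1l 3 and Cr1l 4 were the lowest of the 7, and the groups overlapped. The log2 fold change was -0.48 (SE 0.36, limma adjusted p = 0.515), and 0.07 without Cr1l 3 and Cr1l 4. In the genome annotation Pmel overlaps Cdk2 and Dgka, and since the libraries do not keep strand, reads of a shared stretch cannot be assigned with certainty. Dgka was at 2.01 to 21.2 TPM and Cdk2 at 335 to 770 TPM, below Pmel in every tumour.

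Mlana, the melanosome protein also called MART-1, was at 2065, 2018, 1466 and 1500 TPM with Cr1l and at 2160, 2405 and 2602 TPM with vector. All 4 Cr1l tumours were lower than all 3 Vec tumours, although Cr1l 1 and Vec 5 were close. The log2 fold change was -0.45 (SE 0.17), with a limma adjusted p of 0.283 and an exact permutation p of 0.0857, where 35 arrangements of the tumours allow no p below 0.0286. Without Cr1l 3 and Cr1l 4 the value was -0.22, and when scaled to Sox10 it was -0.05. Mlana also varied least among the 10 genes, 1.77-fold from its lowest to its highest tumour.

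Slc45a2, a transporter of the melanosome membrane needed for its pH, was at 641, 583, 300.5 and 294 TPM with Cr1l and at 714, 450 and 739 TPM with vector. Its log2 fold change of -0.54 (SE 0.34, limma adjusted p = 0.449) was -0.02 without Cr1l 3 and Cr1l 4. The pattern over tumours was almost that of Pmel, as the ratios below show.

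Tyr, the enzyme that limits the rate of pigment synthesis, was at 198, 185, 78.4 and 80.8 TPM with Cr1l and at 178, 115 and 172 TPM with vector. Tyrp1 was at 3966, 3735, 1671 and 2048 TPM against 4143, 2257 and 3798 TPM. Dct was at 5846, 5379, 2410 and 2945 TPM against 4478, 2986 and 4956 TPM. For each enzyme, Cr1l 3 and Cr1l 4 were the 2 lowest tumours, followed by Vec 6, and the groups overlapped. The log2 fold changes were -0.30 for Tyr, -0.30 for Tyrp1 and -0.07 for Dct, with SE from 0.35 to 0.38 and limma adjusted p of 0.709, 0.691 and 0.937. Without Cr1l 3 and Cr1l 4 they were 0.33, 0.23 and 0.47, and without Vec 6 and Vec 7 they were -0.53, -0.63 and -0.21. Dct overlaps an antisense gene in the annotation, 4930435M08Rik, which was at 1.21 to 2.90 TPM, far below it in every tumour. The enzymes together took 0.718% ± 0.297 of TPM with Cr1l (SD, n = 4) and 0.774% ± 0.204 with vector (SD, n = 3).

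Mc1r, the hormone receptor at the head of the pathway, was at 54.3, 43.4, 23.7 and 21.4 TPM with Cr1l and at 58.0, 94.8 and 129 TPM with vector. All 4 Cr1l values were below all 3 Vec values, but Vec 5 lay nearer to Cr1l 1 than to the other Vec tumours. The mean was 35.7 ± 15.8 TPM (SD, n = 4) with Cr1l and 93.9 ± 35.5 TPM (SD, n = 3). The log2 fold change was -1.40 (SE 0.39), with a limma adjusted p of 0.222, which ranged from 0.0972 to 0.787 over the alternatives, and an exact permutation p of 0.0571. In the authors' deposited table the log2 fold change of Mc1r was -1.48 (SE 0.42), and Mc1r was called lower with an adjusted p of 0.0119. The value was -0.87 without Cr1l 3 and Cr1l 4 and -0.79 without Vec 6 and Vec 7, so the direction held while either pair moved the size by more than 1.5 times.

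In the older annotation Mc1r lies within the long gene model Gm20388 and overlaps Gm38092 on the other strand. Neither was analysed here, and reads of a shared stretch cannot be assigned with certainty. Tubb3, which does not overlap Mc1r, encodes a beta tubulin of neurons and is the next protein-coding gene after Mc1r in the RefSeq annotation. Tubb3 was at 27.4, 26.9, 13.7 and 12.8 TPM with Cr1l and at 40.6, 53.5 and 62.8 TPM with vector. All 4 Cr1l tumours were below all 3 Vec tumours, with Vec 5 again the lowest of its group. Its log2 fold change of -1.39 (SE 0.31, limma adjusted p = 0.168) had an exact permutation p of 0.0286, the smallest possible. In the authors' deposited table it was -1.46 (adjusted p = 0.00302). The limma value was -0.90 without Cr1l 3 and Cr1l 4 and -1.05 without Vec 6 and Vec 7. Whether reads that run on from Mc1r into Tubb3 contribute to either row was not tested.

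Mitf was at 306, 264, 125 and 132 TPM with Cr1l and at 161, 145 and 258 TPM with vector. Its log2 fold change was 0.07 (SE 0.37, limma adjusted p = 0.934), with overlapping groups. Sox10 was at 405, 372, 171 and 181 TPM against 322, 311 and 411 TPM, and its log2 fold change was -0.40 (SE 0.34, limma adjusted p = 0.564). Without Cr1l 3 and Cr1l 4 the values were 0.64 for Mitf and 0.17 for Sox10, and without Vec 6 and Vec 7 that of Mitf was 0.25. For both factors Cr1l 3 and Cr1l 4 were the lowest tumours.

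Cited1, a co-activator that binds CBP and p300 and has no DNA-binding domain of its own, was at 282, 348, 171 and 359 TPM with Cr1l and at 121, 137 and 147 TPM with vector. All 4 Cr1l values were above all 3 Vec values, and unlike every other member Cited1 had its highest level in Cr1l 4. The mean was 290 ± 86.4 TPM (SD, n = 4) with Cr1l and 135 ± 12.7 TPM (SD, n = 3). The log2 fold change was 1.05 (SE 0.26), with a limma adjusted p of 0.188, which ranged from 0.0683 to 0.686 over the alternatives, and an exact permutation p of 0.0571. In the authors' deposited table it was 1.04 (SE 0.30, adjusted p = 0.0174). The fold change was 1.21 without Cr1l 3 and Cr1l 4, 1.19 without Vec 6 and Vec 7, and between 0.92 and 1.45 over all alternatives.

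A ratio of 2 genes within a tumour does not move with the share of melanoma cells if both genes are read in the same cells, so each member was also set against Sox10. Per 100 TPM of Sox10, Mitf stood at 75.7, 71.0, 73.4 and 73.1 in the Cr1l tumours and at 50.1, 46.7 and 62.7 in the Vec tumours. The Cr1l tumours were within 5 units of one another and above every Vec tumour, although Mitf itself overlapped between groups. Dct stood at 1440, 1450, 1410 and 1630 against 1390, 961 and 1210, again higher in every Cr1l tumour, with Vec 5 close to Cr1l 3. Cited1 stood at 69.7, 93.6, 100 and 198 against 37.7, 43.9 and 35.7. Mc1r was lower in every Cr1l tumour, at 13.4, 11.7, 13.9 and 11.8 against 18.0, 30.5 and 31.3. The other 5 members overlapped.

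Of the 9 ratios to Sox10, then, 3 were higher and 1 was lower with no overlap between the groups, where 10% of all genes tested were higher and 0.435% lower on the same scale. On the log2 scale the difference of the ratio, Cr1l minus Vec, was 0.47 for Mitf, 0.33 for Dct, 1.45 for Cited1 and -1.0 for Mc1r. Without Vec 6 and Vec 7 it was 0.55, 0.09, 1.49 and -0.49, so the differences of Dct and Mc1r rest in large part on those 2 tumours. Without Cr1l 3 and Cr1l 4 it was 0.47, 0.30, 1.05 and -1.03. These ratios were compared after the levels had been seen and carry no test.

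**Figure D3:**
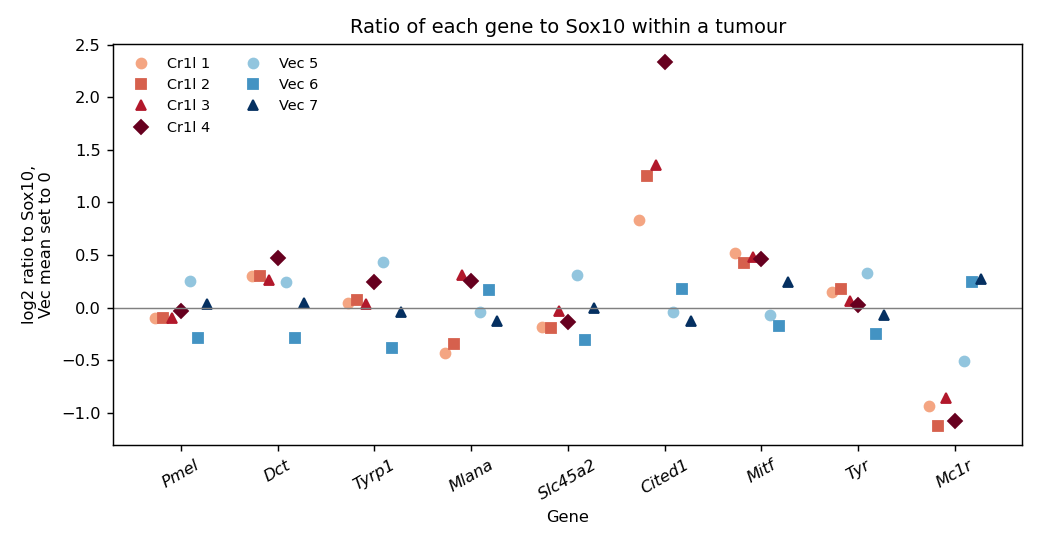
log2 ratio of each gene to Sox10 within a tumour, shifted so that the mean of the 3 Vec tumours is 0, with 1 point per tumour (red shades Cr1l, blue shades Vec). The 4 Cr1l points lie close together for Pmel and Mitf and are spread out for Mlana and Cited1. They are all above the Vec points for Mitf, Dct and Cited1, and all below them for Mc1r.

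Against Pmel, the most abundant member, the ratios of the same genes were higher. Dct and Mitf themselves overlapped between the groups, with log2 fold changes of -0.07 and 0.07, while Pmel stood at -0.48 and Sox10 at -0.40. The log2 ratio of Pmel to Sox10 had an SD of 0.17 over the 7 tumours, so these references are not independent. Dct stood at 83.8, 83.9, 81.7 and 89.9 per 100 TPM of Pmel in the Cr1l tumours and at 63.2, 63.8 and 63.4 in the Vec tumours, which differed by less than 1 unit among themselves. Mitf stood at 4.39, 4.12, 4.25 and 4.04 against 2.28, 3.10 and 3.30. Cited1 stood at 4.04, 5.43, 5.80 and 11.0 against 1.71, 2.92 and 1.88. These 3 of 9 ratios were higher with no overlap, where 14.1% of all genes tested were, and 0 were lower, where 0.268% were. The Mc1r ratio was 0.778, 0.676, 0.804 and 0.653 against 0.819, 2.02 and 1.65, with Vec 5 at the edge of the Cr1l range, and overlapped on the log2(TPM + 1) scale.

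Tumour by tumour, some pairs of members moved in near fixed proportion. Over the 45 pairs of members, the SD of the log2 ratio across the 7 tumours was lowest for Pmel with Slc45a2 (0.07), Pmel with Tyr (0.13) and Tyr with Tyrp1 (0.13). It was highest for Mc1r with Cited1 (1.42) and Slc45a2 with Cited1 (0.99), and Mlana with Tyr was at 0.41. In the Cr1l tumours alone the SD of the log2 ratio to Sox10 was 0.03 for Pmel and 0.04 for Mitf, against 0.28 and 0.22 in the Vec tumours. Mlana and Cited1 went the other way, with 0.39 and 0.64 in the Cr1l tumours against 0.15 and 0.16 in the Vec tumours. Each gene on its own had an SD of 0.32 (Mlana) to 0.93 (Mc1r) on the log2 scale. These are descriptions over 7 tumours that share a cell line and a common scale, and pairs of other genes were not set beside them.

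**Figure D4:**
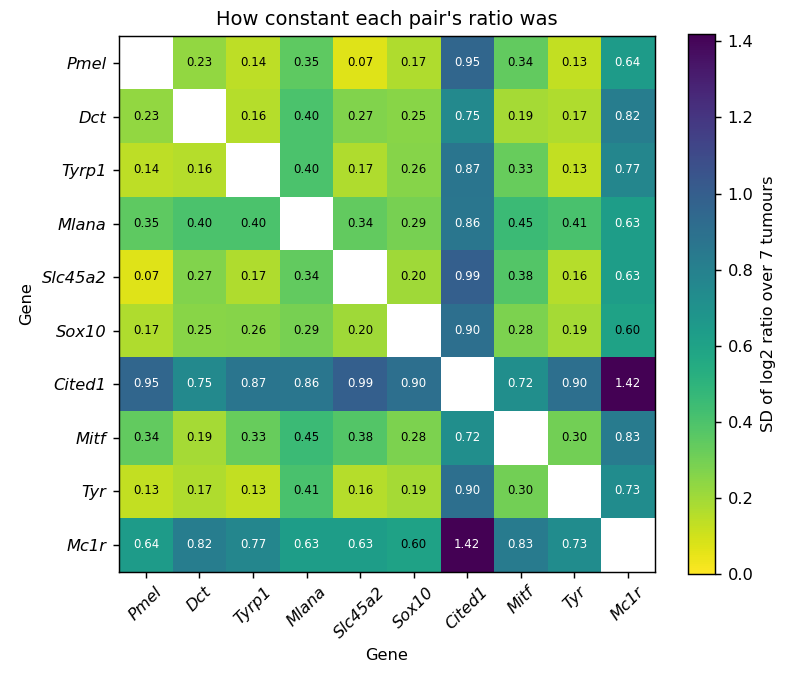
SD over the 7 tumours of the log2 ratio of each pair of the 10 genes, from yellow (constant ratio) to dark purple (variable ratio), with the value printed in each cell. Rows and columns of Cited1 and Mc1r are dark, up to 1.42 for the pair, and Pmel with Slc45a2 is the lightest cell at 0.07.

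Genes outside the set were ranked by how near their profile over the 7 tumours lay to the mean profile of the members, as a root mean square distance in log2 units among 10544 genes whose mean TPM was 5 or more. Among the nearest were Kirrel (0.044), Tecpr1 (0.055), Ttc21b (0.063), Car14 (0.064), Insc (0.071), Msi2 (0.087) and Mlph (0.088). Mlph encodes melanophilin, which links melanosomes to myosin, and Tecpr1 is an autophagy protein. Among the members, Sox10 lay nearest to their mean (0.107), while Mc1r (0.631) and Cited1 (0.757) lay far from it. Outside genes that lay nearer to that mean than the member did numbered 25 for Sox10, 103 for Pmel, 621 for Mitf and 1060 for Mlana. A profile like that of the members was thus not particular to them.

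Of 104 tested genes in 7 lists of the wider pathway, limma called 0 at an adjusted p of 0.05, while 10 were higher and 7 lower at an unadjusted p under 0.05, shares close to the 9.49% and 6.07% of all genes given above. Counts of single lists are read against those shares, and against 4.74% of all genes called higher and 2.27% called lower in the authors' deposited table. In the list of melanosome membrane and matrix proteins, 6 of 11 tested genes were positive and 5 negative, with a median log2 fold change of 0.03. Oca2, a chloride channel of the melanosome, stood at -0.64 (limma adjusted p = 0.401), and the ion exchanger Slc24a5 at -0.19 (limma adjusted p = 0.74). Gpnmb and Gpr143, a glycoprotein and a receptor of the organelle, stood at -0.27 and -0.43. Without Vec 6 and Vec 7 these 4 values were -0.98, -0.33, -0.51 and -0.78, and without Cr1l 3 and Cr1l 4 they were -0.20, 0.24, 0.20 and 0.14. Slc24a4, an ion exchanger, was the 1 gene of the list that the authors' deposited table called, lower by a log2 value of -0.89 with an adjusted p of 0.0273. Tpcn2, a channel of the melanosome and of lysosomes, was at 18.3, 18.5, 41.8 and 42.6 TPM with Cr1l and at 13.1, 16.7 and 16.97 TPM with vector, highest in Cr1l 3 and Cr1l 4.

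Among the 10 tested genes for melanosome transport, 4 were positive and 6 negative, with a median of -0.04. Rab32, a small GTPase that brings enzymes to the melanosome, was at 58.1, 54.9, 58.3 and 57.4 TPM with Cr1l and at 44.1, 38.7 and 41.3 TPM with vector. It did not follow the low values of Cr1l 3 and Cr1l 4, and its groups did not overlap. Its log2 fold change was 0.46 (SE 0.11, limma adjusted p = 0.183), and the authors' deposited table called it higher with an adjusted p of 0.0388. Rab38, which acts with it, stood at 307, 297, 160 and 185 TPM against 301, 263 and 326 TPM, lowest in Cr1l 3 and Cr1l 4.

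Complexes that build the melanosome varied little, with 20 tested genes between -0.55 and 0.41 and a median of 0.01. Bloc1s4, a subunit of BLOC-1, was at 18.0, 21.1, 21.6 and 23.7 TPM with Cr1l and at 28.9, 32.0 and 32.7 TPM with vector (log2 fold change -0.55, SE 0.14, limma adjusted p = 0.203). It was 1 of 3 genes in the list that were lower with no overlap, where 6.67% of all genes were, and Vps33a, a vesicle fusion protein, was the 1 that was higher. The authors' deposited table called 0 of the 20.

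The receptors and ligands that steer melanocytes had a median of 0.14 over 12 tested genes. Kit, the receptor for stem cell factor, was at 20.7, 18.3, 23.6 and 15.7 TPM against 27.3, 13.9 and 32.4 TPM, and its groups overlapped. Ednrb, the endothelin receptor, was at 7.46, 11.8, 49.5 and 47.2 TPM with Cr1l and at 11.2, 2.20 and 2.64 TPM with vector. Its level was highest in Cr1l 3 and Cr1l 4, where the pigment genes were lowest. The log2 fold change of 2.12 (limma adjusted p = 0.27) was 1.00 without those 2 tumours and 0.89 without Vec 6 and Vec 7. With macrophage markers as a covariate the change was 0.99, and the part of other cells in the level of Ednrb was not tested. The authors' deposited table called Ednrb higher with an adjusted p of 0.0207.

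Transcription factors of the lineage had a median of 0.10 over 19 tested genes, and the authors' deposited table called 3 of 20 higher. Sox5, which modulates the action of Sox10, was at 5.13, 5.56, 5.21 and 3.30 TPM against 2.93, 2.57 and 1.99 TPM (adjusted p = 0.0314 in the authors' deposited table). Tfec, a relative of Mitf that macrophages also express, was at 1.17, 2.01, 13.8 and 6.99 TPM against 0.86, 0.12 and 0.72 TPM. Zeb1, a factor of mesenchymal cells, was at 2.33, 3.23, 13.3 and 8.91 TPM against 2.86, 1.62 and 0.82 TPM. Tfec and Zeb1 were highest in Cr1l 3 and Cr1l 4, and without those tumours their log2 fold changes of 1.79 and 1.34 were 0.74 and 0.51. Pax3, which acts with Sox10 on Mitf, stood at -0.57 (limma adjusted p = 0.425), and at -0.02 without Cr1l 3 and Cr1l 4.

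Other targets of Mitf had a median of -0.05 over 19 tested genes, 9 positive and 10 negative. Trpm1, the ion channel melastatin, stood at -0.28 (limma adjusted p = 0.702), at 0.23 without Cr1l 3 and Cr1l 4 and at -0.49 without Vec 6 and Vec 7. Rragd, a small GTPase of nutrient signalling, was the 1 gene called by the authors' deposited table, lower with an adjusted p of 0.0449. It was at 7.27, 7.54, 6.48 and 4.78 TPM with Cr1l and at 13.1, 9.74 and 8.40 TPM with vector, with no overlap.

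Genes of the low-MITF melanoma state, in which melanoma cells lose pigment and gain mesenchymal features, had a median of 0.89 over 19 tested genes, 12 positive and 7 negative. The authors' deposited table called 3 of 19 higher, Loxl2, Nes and Ngfr, with adjusted p of 0.00613, 0.0277 and 0.0237. Loxl2, a collagen cross-linking enzyme, was at 28.9, 41.9, 63.8 and 82.1 TPM with Cr1l and at 26.2, 10.3 and 13.8 TPM with vector (limma adjusted p = 0.198). Fn1, fibronectin, was at 113, 174, 378 and 405 TPM against 158, 73.0 and 67.8 TPM. It was not called in the authors' deposited table (adjusted p = 0.0624). Loxl2 and Fn1 were highest in Cr1l 3 and Cr1l 4, and their log2 fold changes of 1.63 and 1.34 were 1.11 and 0.60 without those tumours and 0.91 and 0.57 without Vec 6 and Vec 7. Fibroblasts also express many genes of this list. Nes, the filament protein nestin, was at 12.1, 12.1, 11.2 and 6.51 TPM with Cr1l and at 7.14, 4.19 and 4.21 TPM with vector, lowest of the Cr1l tumours in Cr1l 4. Its log2 fold change of 0.89 (limma adjusted p = 0.238) was 1.11 without Cr1l 3 and Cr1l 4 and 0.46 without Vec 6 and Vec 7. Ngfr, a neurotrophin receptor, was at 0.33, 0.11, 34.0 and 4.96 TPM against 0.40, 0.12 and 0.15 TPM, high in Cr1l 3 and Cr1l 4 alone (limma adjusted p = 0.448). Jun, by contrast, was at 45.7, 51.2, 50.3 and 64.6 TPM against 92.5, 124 and 60.7 TPM. Axl and Vim, also among the 7 negative genes, had log2 fold changes of -0.62 and -0.23 (limma adjusted p = 0.43 and 0.435). Axl was at 41.0, 38.2, 96.4 and 80.1 TPM with Cr1l and at 129, 70.7 and 83.7 TPM with vector.

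Macrophage and fibroblast markers were highest in Cr1l 3 and Cr1l 4, the tumours lowest in pigment genes, but endothelial markers were high in Cr1l 3 alone. The endothelial markers summed to 200, 181, 513 and 143 TPM in Cr1l 1 to Cr1l 4 and to 241, 191 and 89.4 TPM in Vec 5 to Vec 7. The 14 macrophage markers summed to 603, 1030, 5930 and 5000 TPM in Cr1l 1 to Cr1l 4 and to 1620, 845 and 511 TPM in Vec 5 to Vec 7, and 13 of 14 had a positive fold change. The 12 fibroblast markers summed to 844, 1240, 6640 and 5200 TPM against 1410, 617 and 179 TPM, and all 12 were positive. Cr1l 3 and Cr1l 4, lowest in 9 of the 10 pigment and lineage genes, were thus highest for the macrophage and fibroblast lists. No marker of these lists was at 0 throughout. Among the Vec tumours, Vec 6 was lowest for the 10 genes together, while Vec 5 was highest for these lists. With the macrophage mean as a covariate in limma, Cited1 had a log2 fold change of 1.21 (adjusted p = 0.13), Mc1r -0.83 (0.0972), Pmel -0.06 (0.939) and Mitf 0.59 (0.222).

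Other lists split the Vec tumours. Red cell markers summed to 198 to 506 TPM in the Cr1l tumours and to 544, 41400 and 9810 TPM in Vec 5 to Vec 7. Skin and muscle markers were highest in Vec 6, at 1120 TPM for keratinocytes and 1660 TPM for skeletal muscle, and the Vec 5 sums were 79.0 and 352 TPM and those of Vec 7 8.97 and 69.0 TPM. Cr1l 3 had 94.3 and 288 TPM, while Cr1l 1, Cr1l 2 and Cr1l 4 had at most 2.46 and 11.7 TPM. The part of these cells in the level of Mc1r, which was highest in Vec 7 and next in Vec 6, was not tested. With mitochondrial, globin and immunoglobulin genes left out and TPM rescaled, Mc1r stood at -1.37 and Cited1 at 1.08. B and plasma cell markers summed to 421, 170, 1310 and 483 TPM with Cr1l and to 33.9, 9.09 and 13.8 TPM with vector, with no overlap. T and NK cell markers summed to 36.3, 26.0, 243 and 111 TPM against 54.1, 56.3 and 31.4 TPM. The part of either in the levels of the 10 genes was not tested. Markers of Schwann cells, which share Sox10 with melanocytes, summed to 250 to 388 TPM in the Cr1l tumours and 304 to 495 TPM in the Vec tumours.

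**Figure D5:**
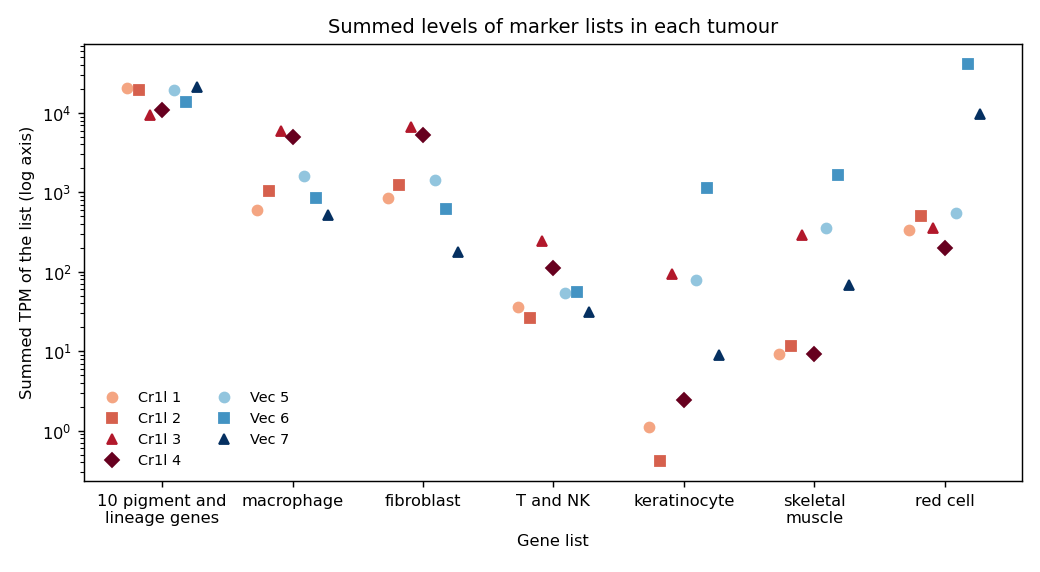
Summed TPM of the 10 genes and of 6 marker lists in each of the 7 tumours, on a log axis, with 1 point per tumour (red shades Cr1l, blue shades Vec). Cr1l 3 and Cr1l 4 are lowest for the pigment and lineage genes and highest for macrophage and fibroblast markers, and Vec 6 is highest for red cell, keratinocyte and muscle markers.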

How the data were processed

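Groups and tumour numbers came from the sample labels, and the numbers 1 to 7 pair nothing across groups. Per the labels' protocols, poly-T beads selected the messenger RNA and the libraries do not keep strand. The submitters' processing notes name RSEM, DESeq2 and the build mm39; the sources used here give no versions, aligner, annotation or read numbers. In the deposited expression table the authors gave log2(TPM + 1) values, and 99.892% of values have 2 decimals once the logarithm is undone. The sums run from 993520 to 996031 TPM per tumour; TPM keeps no depth, so the depth is unknown and no counting interval is given. Per the file headers, the authors' comparison table holds a mean normalized count (a signal averaged over tumours), a log2 fold change, the standard error of that change, a test statistic (a score), and raw and adjusted p-value columns, by Ensembl identifier. Its numerator is not named and was read as Cr1l, from the sign of Cr1l and from a correlation of 0.88 with the fold changes computed here over 14266 genes. Of its 28369 identifiers, 27182 matched a symbol in a name table of GRCm38, an older build, from which no gene coordinates are printed apart from those of the promoter sequences. The deposited repertoire table was not used.

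The 14954 genes whose mean TPM was 1 or more entered a limma 3.58.1 fit (R 4.3.3) of log2(TPM + 1), with group as the 1 term, a trend on mean expression, two-sided p and Benjamini-Hochberg adjustment over all genes. Fold changes on this scale understate changes of genes with low values. The fit was tested on simulated data. Single genes also had an exact two-sided permutation test. In ratios of 2 genes, overlap of the groups was read on log2(TPM + 1). Figures used Python 3.11.15 and matplotlib 3.10.9.

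The members, gene lists and tests were chosen with earlier results of these data known, and the lists are described by counts, with no test. The naming rule took all members, Cr1l, up to 4 genes of each pathway list with the smallest p, 8 well-known pigment genes and the 8 nearest profiles, 1 of which is not reported here. Tubb3 and the genes that overlap a member were named for their place in the genome, and Tubb3 and Ngfr after their values were seen. Alternatives were a pseudocount of 0.1, no filter, median-of-ratios scaling, mitochondrial, globin and immunoglobulin genes left out, array weights, the macrophage list as a covariate, each tumour left out, and Vec 6 and Vec 7 left out. Leaving out Cr1l 3 and Cr1l 4 and scaling to Sox10 were added after seeing the data.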

Additional observations from a re-analysis of the deposited data

Results flagged for a closer look

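Within the 4 Cr1l tumours, 1 tumour lay apart from the other 3 for 5 values, by a gap wide in relation to the whole range of the group. Chance marks about 1 in 20 groups in this way, and 51 genes were looked at beside the ratios. Of those 51 genes, only Nes and Bloc1s1 were marked. Per 100 TPM of Sox10, Cr1l 4 stood above the other Cr1l tumours for Pmel (1810 against 1720 to 1730), Tyrp1 (1130 against 979 to 1000) and Dct (1630 against 1410 to 1450). These 3 ratios share the Sox10 value of that tumour. Cr1l 4 lay within the range of the Vec tumours for Pmel (1510 to 2200) and Tyrp1 (726 to 1290), and above it for Dct (961 to 1390). Nes, the intermediate filament nestin, was at 6.51 TPM in Cr1l 4, against 11.2 to 12.1 TPM in the other 3. Bloc1s1, a BLOC-1 subunit, was at 152.96 TPM in Cr1l 3, against 127 to 131 TPM in the other 3.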

How the results depend on the processing

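The count of members called by limma was 0 under all 16 alternatives, as was that of the pathway genes. Cited1 stayed higher and Mc1r and Mlana lower in each of them, although Mlana was at only -0.05 when scaled to Sox10. Members with no overlap between groups numbered 3 higher and 1 lower when scaled to Sox10, where 10.9% and 0.716% of all genes did so. They numbered 4 higher and 2 lower without Cr1l 3 and Cr1l 4 (22.8% and 12.7% of all genes), and 1 higher and 5 lower without Vec 6 and Vec 7 (20.1% and 26.4%), which leaves 1 Vec tumour. Leaving out 1 tumour gave 2 to 4 lower, with 4 without Vec 6 (12.1%). The median log2 fold change of the members, -0.35, was 0.20 without Cr1l 3 and Cr1l 4 and -0.53 to -0.14 with 1 tumour left out. Signs turned without Cr1l 3 and Cr1l 4 for Pmel (0.07), Tyr (0.33), Tyrp1 (0.23), Dct (0.47), Sox10 (0.17), Gpnmb (0.20), Gpr143 (0.14), Slc24a5 (0.24), Trpm1 (0.23) and Ngfr (-0.00). With the macrophage covariate they turned for Tyr (0.16), Tyrp1 (0.07), Dct (0.35), Sox10 (0.07), Gpnmb (0.07), Slc24a5 (0.13) and Trpm1 (0.10). When scaled to Sox10 they turned for Tyr (0.10), Tyrp1 (0.10), Dct (0.34), Gpnmb (0.13), Kit (0.14), Slc24a5 (0.21) and Trpm1 (0.12). Array weights turned Dct (0.04), and leaving out 1 tumour moved Dct from -0.29 to 0.16 and Mitf from -0.15 to 0.32. The cause was not tested. No paired analysis was possible because the groups share no tumour number. Depth is unknown, and 4 and 3 tumours limit the precision: 0.0286 was the smallest exact p.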
